A study of Mus musculus with 3 samples.

Results

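Wells of cultured mouse embryonic kidney cells that held transcripts of the tdTomato label were set against wells without them, to see what label-carrying cells express. A well was called positive with at least 2 counts of the tdTom transcript and negative with 0 counts. Kept wells were labelled neither as controls nor as holding more than 1 cell, and had at least 1000 counts of nuclear genes and at most 30% mitochondrial counts. The tdTom counts, the depth and the mitochondrial share therefore chose the members and are given as a description only. On the E12.5 cultured plate, 38 positive and 108 negative wells were found among 200 kept wells. The E11.5 cultured plate gave 48 positive and 170 negative wells of 300. Together they are 86 positive and 278 negative wells, 364 of the 837 kept wells of the series, and 54 and 82 wells with exactly 1 tdTom count fell between the groups.

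Positive and negative wells of a plate shared everything the labels give. All came from mice of C57BL/6 background with the genotype LGR6-EGFP-IRES-CreERT2/ROSA26-tdTomato, so negative wells carry the reporter too. The E12.5 plate held kidneys cultured for 5 days from that embryonic day. For the E11.5 plate the sources differ, with 7 days of culture in the title and 5 in the label for the stage. Explants grew in Dulbecco's medium with 10% serum, were dissociated with collagenase and were sorted into 384-well plates. SORT-seq, which sorts a cell into each well and tags every transcript with a molecular identifier, gave the counts. Another plate held uncultured E11.5 cells of the LGR6-EGFP-IRES-CreERT2 genotype, without the reporter by its label, and serves here only as a blank for tdTom. Not given in the sources used here are the sort gate, the use of tamoxifen, and the numbers of embryos and explants. Wells of a plate may share an explant and each stage has 1 plate, so wells are not replicates and no p-value is given. Differences are given as CPM of summed counts (counts per 1000000 counts of nuclear genes) with 95% intervals that cover counting error only.

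Lgr6 is a receptor for R-spondins, secreted proteins that strengthen Wnt signalling by keeping the ubiquitin ligases Znrf3 and Rnf43 from removing Wnt receptors. In the knock-in allele, cells that transcribe Lgr6 make EGFP and CreERT2, a recombinase that acts in the nucleus only when tamoxifen is present. Recombination at Rosa26 removes a stop sequence before tdTomato, so a cell and its descendants can keep the label after Lgr6 itself has been switched off. In the embryonic kidney, nephron progenitors give rise to the epithelium of the nephron, the branching ureteric epithelium to the collecting ducts, and the stroma around them to fibroblasts, pericytes and other interstitial cells.

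The label was counted in few molecules per well. On the E12.5 plate 18 wells had 2 counts, 7 had 3, 6 had 4, 5 had 5, 1 had 6 and 1 had 11. On the E11.5 plate 29 wells had 2 counts, 13 had 3, 4 had 4 and 2 had 5. The next wells outside the threshold, those with 1 count, were more numerous than those with 2, and no gap separated 0, 1 and 2 counts. Among control wells 1 of 15 on the E12.5 plate held a single tdTom count, of 2940 counts in all of them, or 340 CPM (8.61 to 1895). None of 15 on the E11.5 plate held any, where 2738 counts allow up to 1096 CPM. Both ranges include the levels of kept wells given next, so these control wells cannot separate label from background. Over all kept wells tdTom was at 75.3 CPM on the E12.5 plate and 63.8 CPM on the E11.5 plate, against 0.481 CPM (0.0582 to 1.74) on the uncultured plate, which held 2 counts in 337 kept wells. Those counts lay in 2 wells, and none of the plate's 15 control wells held any.

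Deep wells crossed the threshold more often than shallow wells. On the E12.5 plate with the kept wells split by depth into 3 groups of near-equal size, 12.1% of the shallowest were positive (exact Clopper-Pearson interval 5.38 to 22.5), 10.4% of the middle group (4.30 to 20.3) and 34.3% of the deepest (23.2 to 46.9). On the E11.5 plate these shares were 4.0% (1.10 to 9.93), 15.0% (8.65 to 23.5) and 29.0% (20.4 to 38.9). The tdTom level of the same groups, shallowest first, was 93.3, 65.2 and 75.4 CPM on the E12.5 plate and 61.2, 71.2 and 60.9 CPM on the E11.5 plate. The deepest group thus had the largest share of positive wells on both plates without having the highest level. From the shallowest to the middle group the share rose on the E11.5 plate only. A well with 0 counts is therefore not shown to be free of label, and how many negative wells hold labelled cells was not tested. Position on the plate differed less: positive wells made up 19.05% of the upper and 18.9% of the lower rows on the E12.5 plate, and 14.8% and 17.0% on the E11.5 plate. In columns 1 to 12 and 13 to 24 they made up 18.75% and 19.3% on the E12.5 plate, and 14.2% and 18.5% on the E11.5 plate.

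**Figure D1:**
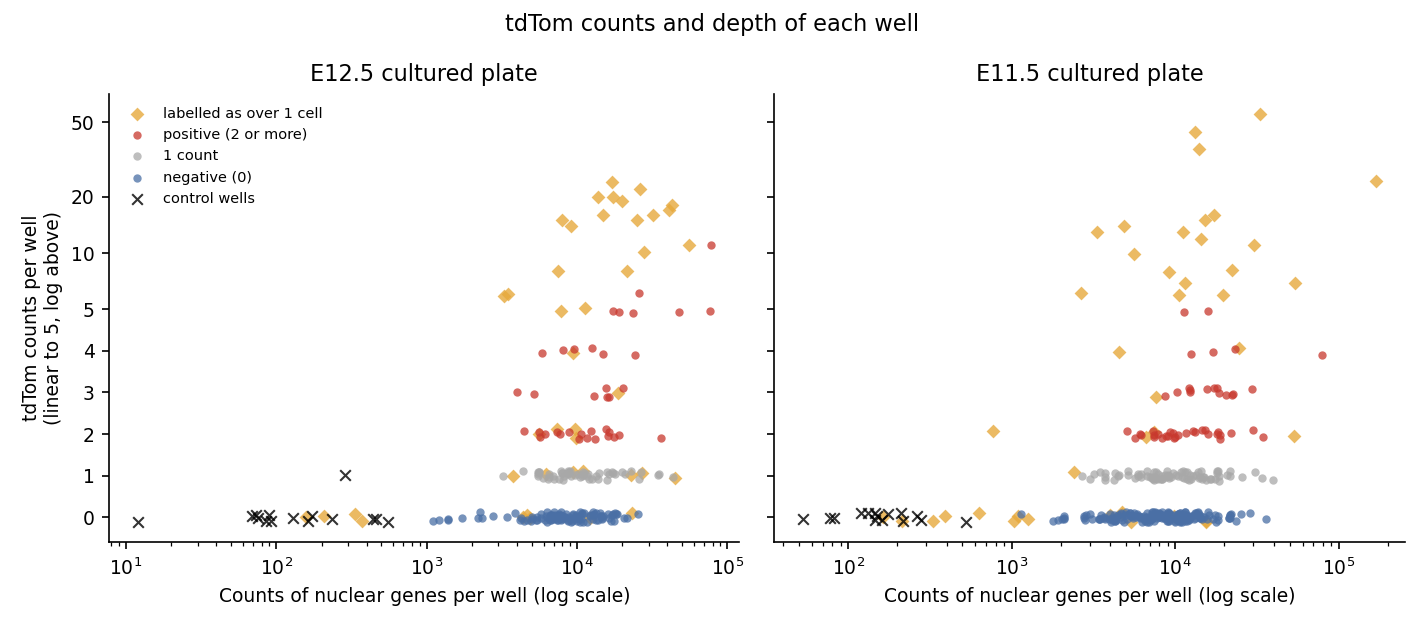
Each point is a well, with its tdTom counts (linear up to 5, logarithmic above; points are moved slightly apart) against its counts of nuclear genes on a logarithmic axis, for the E12.5 and the E11.5 cultured plate. Positive wells lie at greater depth than negative wells (median 14073 against 8031 counts on the E12.5 plate), and the control wells lie to the left.

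Because of this, positive wells were paired 1 to 1 with negative wells of the same plate. Pairs were chosen for the smallest total distance in depth, each within 0.1 on the log10 scale. Before pairing, the median depth was 14073 counts in positive and 8031 in negative wells on the E12.5 plate, and 12643 and 8033 on the E11.5 plate. The 34 pairs of the E12.5 plate had medians of 12807.5 counts in positive and 12845 in negative wells, and the 47 pairs of the E11.5 plate 12501 and 12631 counts. Left unpaired were 4 positive wells of the E12.5 plate with 36148 to 77740 counts and 1 of the E11.5 plate with 78448 counts. The median number of genes per paired well was 4688.5 in positive and 4576.5 in negative wells on the E12.5 plate, and 4696 and 4486 on the E11.5 plate. The median mitochondrial share of paired wells was 3.21% in positive and 4.36% in negative wells on the E12.5 plate, and 3.15% and 3.53% on the E11.5 plate. All ratios below are positive over negative in paired wells, and a gene counts as apart at 1.5-fold or more, whichever way.

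The allele that starts the labelling was read in both groups. The knock-in transcript EGFP_IRES_Cre had 16 counts (36.4 CPM) in positive and 23 (53.5 CPM) in negative E12.5 wells, a ratio of 0.68 with an interval of 0.34 to 1.34. This direction depended on the threshold: the log2 ratio was -0.56 here, 0.31 with positive wells at 3 or more tdTom counts and 0.085 at 1 or more. It had 22 counts (32.8 CPM) in positive and 21 (31.4 CPM) in negative E11.5 wells, a ratio of 1.04 (0.55 to 1.996), with log2 ratios on either side of 0 among the alternatives (-0.15 to 0.26). The transcript was found in 13 positive and 18 negative wells of the E12.5 plate and in 16 and 17 of the E11.5 plate, so negative wells held it as well. NeoR, a resistance gene listed beside it in the tables, had 77.2 CPM in positive and 55.8 CPM in negative E12.5 wells, and 43.2 CPM in positive and 70.3 CPM in negative E11.5 wells. Its direction was opposite on the 2 plates, with ratios of 1.38 (0.80 to 2.44) and 0.62 (0.37 to 1.00).

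Lgr6 itself was near the limit of detection in positive and negative wells alike. It had 0 counts in positive and 2 in negative E12.5 wells, and 4 in positive and 3 in negative E11.5 wells, too few to show a difference. Lgr5, its close relative and a marker of many epithelial stem cells, had 0 counts in both E12.5 groups, and 2 counts in positive and 0 in negative E11.5 wells. Lgr4, the broadly expressed receptor of the family, had 56.8 CPM in positive and 81.4 CPM in negative E12.5 wells, and 67.1 CPM in positive and 52.4 CPM in negative E11.5 wells, with intervals of the ratio that include 1 on both plates. The ligand Rspo3 had 13.6 CPM in positive and 48.8 CPM in negative E12.5 wells, a ratio of 0.28 (0.09 to 0.72) from 6 and 21 counts, but 145 CPM in positive and 123 CPM in negative E11.5 wells, a ratio of 1.18 (0.87 to 1.60). Rspo1 had 9.09 CPM in positive and 32.6 CPM in negative E12.5 wells from 4 and 14 counts, and 20.9 CPM in positive and 13.5 CPM in negative E11.5 wells. Over the 9 Lgr receptors, R-spondins and ligases the summed level was 95.4 CPM in positive and 198 CPM in negative E12.5 wells, and 279 CPM in positive and 217 CPM in negative E11.5 wells, so the 2 plates went opposite ways here too.

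Most genes differed little between positive and negative wells, and the 2 plates shared few differences. Of 4025 genes with at least 50 counts in the paired E12.5 wells, 373 (9.27%) were at least 1.5-fold higher and 315 (7.83%) at least 1.5-fold lower in positive wells, 17.1% in either direction. Of 5791 such genes in E11.5 wells, 411 (7.1%) were higher and 405 (6.99%) lower, 14.1% in either direction. Among the 3961 genes measured on both plates, 34 (0.858%) were higher on both and 10 (0.252%) lower on both. In comparison, 49 (1.24%) were higher on the E12.5 plate and lower on the E11.5 plate, and 34 (0.858%) the reverse. Genes apart in opposite directions outnumbered those apart in the same direction in paired wells, but not under each alternative. Without pairing 58 genes were higher and 50 lower on both plates, against 38 and 40 apart in opposite directions, and without wells holding 3 or more markers of other cell types 28 and 13, against 19 and 14. Thinned wells (4 and 0, against 1 and 1) and unpaired wells without the deepest (31 and 58, against 50 and 34) also had more genes apart in the same direction. The correlation of the log2 ratios across these genes was r = -0.148 (Pearson, across genes, which are not replicates), and the median log2 ratio of all genes was 0.0049 on the E12.5 plate and 0.025 on the E11.5 plate. Of the 34 genes higher on both plates, 27 kept their direction on both when all positive and negative wells were used without pairing, but only 6 were still 1.5-fold apart. With the threshold at 3 counts 31 kept their direction and 8 were still apart, and at 1 count 33 and 1. The genes below are therefore described gene by gene, with the wells that carry them.

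**Figure D2:**
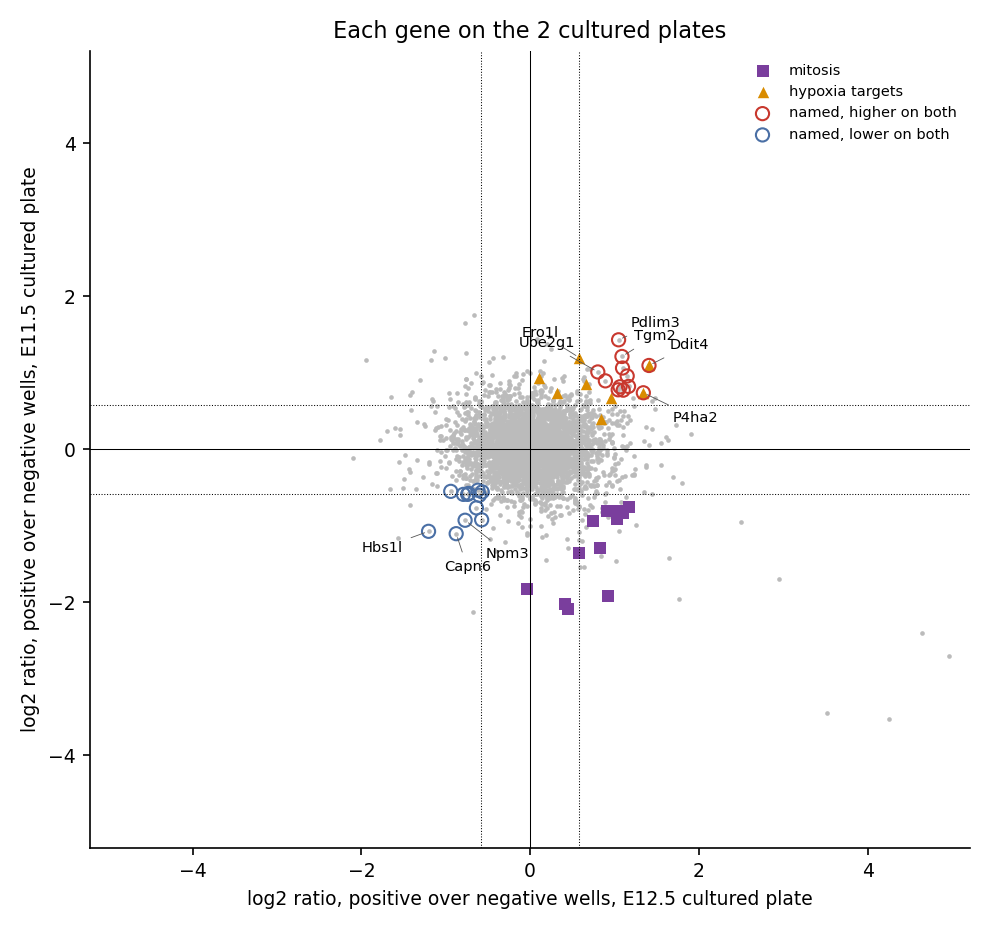
Each point is a gene with at least 50 counts on each plate, at its log2 ratio of positive over negative wells on the E12.5 plate (horizontal) and the E11.5 plate (vertical); dotted lines mark 1.5-fold. Hypoxia targets (triangles, medians 0.75 and 0.73) lie to the upper right and mitosis genes (squares, medians 0.87 and -1.30) to the lower right. These medians are over the members measured on each plate, some of which are not drawn. Open circles are named genes with the smaller of their 2 ratios farthest from 0, of which 5 below 0 miss the line on at least 1 plate.

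Genes that are turned on when oxygen is low formed the list with the highest median log2 ratio shared by both plates among lists of 3 or more measured members. In cells short of oxygen, HIF transcription factors escape degradation and raise genes for glucose uptake, glycolysis, collagen hydroxylation and vessel growth. The 14 hypoxia targets listed summed to 2047 CPM in positive and 1195 CPM in negative E12.5 wells, a ratio of 1.71 (1.54 to 1.91), and to 3091 CPM in positive and 1836 CPM in negative E11.5 wells, a ratio of 1.68 (1.57 to 1.81). Wells with exactly 1 tdTom count stood in between on both plates, at 1719 and 2207 CPM. They were not paired by depth and were shallower than the paired wells, at medians of 9938 and 9058 counts. Of the members measured, 6 of 8 on the E12.5 plate (background 9.27%) and 8 of 13 on the E11.5 plate (background 7.1%) were at least 1.5-fold higher in positive wells and none was 1.5-fold lower. The median log2 ratio of the members was 0.75 and 0.73.

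Single wells spread over a wide range that the groups shared. The summed hypoxia level of a well was 246 at the lowest, 1820 at the median and 7056 CPM at the highest in positive E12.5 wells, and 186, 725 and 7321 CPM in negative ones. E11.5 wells had 334, 2216 and 16457 CPM in positive and 0, 1204 and 8175 CPM in negative wells. The positive well was the higher one in 24 of 34 and in 30 of 47 pairs. Above 2000 CPM lay 16 positive and 7 negative wells of the E12.5 plate, and 29 and 18 of the E11.5 plate. The groups overlapped over nearly their whole ranges, and negative wells with a high level were present on both plates.

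The result depended on the pairing by depth and on the deepest wells on both plates. Without pairing, with all positive and negative wells, the median log2 ratio of the list was -0.023 on the E12.5 plate and 0.17 on the E11.5 plate. With all wells but without those of over 3 times the plate's median count, an alternative added after the data were seen, it was 0.48 and 0.49. That alternative leaves out the 4 unpaired positive wells of the E12.5 plate. In paired wells a threshold of 1 tdTom count gave 0.47 and 0.22, and a threshold of 3 counts 0.72 and 1.02.

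Ddit4, an inhibitor of the growth-promoting kinase complex mTORC1, was higher on both plates. It had 198 CPM in positive and 74.4 CPM in negative E12.5 wells, a ratio of 2.66 (1.75 to 4.12), and was found in 20 and 15 of 34 wells. E11.5 wells had 246 CPM in positive and 115 CPM in negative wells, 2.14-fold (1.62 to 2.84), in 37 and 29 of 47 wells. The highest well held 1463 CPM in the positive and 1216 CPM in the negative E12.5 group, so the ranges overlapped. P4ha1 and P4ha2 encode catalytic subunits of the enzyme that hydroxylates prolines in collagen. P4ha2 had 248 CPM in positive and 97.7 CPM in negative E12.5 wells (2.54-fold, 1.76 to 3.71), and 357 CPM in positive and 214 CPM in negative E11.5 wells (1.67-fold, 1.35 to 2.06). P4ha1 had 348 CPM in positive and 179 CPM in negative E12.5 wells (1.94-fold, 1.47 to 2.59), and 434 CPM in positive and 272 CPM in negative E11.5 wells (1.60-fold, 1.32 to 1.93). P4ha1 was higher in the positive well of 23 of 34 and of 30 of 47 pairs.

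Higd1a, a mitochondrial protein that binds the respiratory chain, had 173 CPM in positive and 109 CPM in negative E12.5 wells (1.58-fold, 1.08 to 2.32), and 237 CPM in positive and 132 CPM in negative E11.5 wells (1.804-fold, 1.38 to 2.36). On the E11.5 plate the positive well was nevertheless the higher one in 19 pairs and the lower in 22. Ero1l, an oxidase that helps form disulfide bonds in the endoplasmic reticulum, had 97.7 CPM in positive and 65.1 CPM in negative E12.5 wells (1.5-fold, 0.91 to 2.51), and 196 CPM in positive and 85.3 CPM in negative E11.5 wells (2.29-fold, 1.67 to 3.18). Bnip3, which marks mitochondria for removal, had 295 CPM in positive and 165 CPM in negative E12.5 wells, but 392 CPM in positive and 299 CPM in negative E11.5 wells, below 1.5-fold. Vegfa, the growth factor of blood vessels, went the other way round, with 291 CPM in positive and 270 CPM in negative E12.5 wells and 635 CPM in positive and 332 CPM in negative E11.5 wells. Ndrg1 had 31.8 CPM in positive and 30.2 CPM in negative E12.5 wells and 82.0 CPM in positive and 25.4 CPM in negative E11.5 wells, a ratio of 3.23 (1.84 to 5.93). Members of the list thus shared a direction more than a size.

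HIF binds the letters ACGTG or GCGTG, and the promoters of 4 of the 5 list members apart on both plates were read for them, a search chosen after the values were seen; the fifth is Ero1l. The sequences are RefSeq's for GRCm38.p6, from 250 bases before to 50 bases after the gene's start, on the gene's strand, with ACGTG and GCGTG of either strand (CACGT and CACGC on the other) in capitals. They lie at chr10:59951721-59952020 (minus strand) for Ddit4, chr11:54100674-54100973 (plus) for P4ha2, chr10:59323046-59323345 (plus) for P4ha1 and chr9:121857747-121858046 (minus) for Higd1a.
Ddit4: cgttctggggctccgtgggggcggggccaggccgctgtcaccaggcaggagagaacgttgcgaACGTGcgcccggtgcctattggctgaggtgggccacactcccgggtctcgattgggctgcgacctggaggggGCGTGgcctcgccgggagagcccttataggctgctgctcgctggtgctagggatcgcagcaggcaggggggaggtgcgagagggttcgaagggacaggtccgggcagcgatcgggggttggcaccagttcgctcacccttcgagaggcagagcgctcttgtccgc
P4ha2: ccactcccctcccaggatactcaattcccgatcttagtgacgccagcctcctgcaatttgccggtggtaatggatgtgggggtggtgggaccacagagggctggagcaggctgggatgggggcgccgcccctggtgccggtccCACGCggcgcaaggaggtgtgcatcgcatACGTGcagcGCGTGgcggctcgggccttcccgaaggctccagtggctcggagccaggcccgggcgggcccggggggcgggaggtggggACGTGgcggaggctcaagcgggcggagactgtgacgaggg
P4ha1: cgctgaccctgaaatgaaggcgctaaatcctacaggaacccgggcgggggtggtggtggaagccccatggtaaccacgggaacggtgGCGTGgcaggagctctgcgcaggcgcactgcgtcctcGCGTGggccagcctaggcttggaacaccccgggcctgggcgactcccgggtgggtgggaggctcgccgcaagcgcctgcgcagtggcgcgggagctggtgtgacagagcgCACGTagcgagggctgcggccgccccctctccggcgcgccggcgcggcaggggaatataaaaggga
Higd1a: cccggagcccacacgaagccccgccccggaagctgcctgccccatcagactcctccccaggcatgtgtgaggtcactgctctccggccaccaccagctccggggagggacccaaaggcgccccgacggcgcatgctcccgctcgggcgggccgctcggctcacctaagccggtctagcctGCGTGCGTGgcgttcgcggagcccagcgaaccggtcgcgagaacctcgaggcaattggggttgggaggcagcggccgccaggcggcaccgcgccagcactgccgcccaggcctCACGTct
All 4 windows hold both motifs. Of 27025 promoters of the same length, 19.7% hold ACGTG, 32.5% GCGTG and 43.8% at least 1 of them, so either motif is common. The share of promoters that hold both, as these 4 windows do, was not counted, so none of these shares is its background. A match describes these letters only, and the data do not measure binding.

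Glycolysis, the pathway from glucose to pyruvate and lactate, moved with the hypoxia targets on 1 plate. Its median log2 ratio was 0.64 on the E12.5 plate, with 7 of 11 members at least 1.5-fold higher (background 9.27%) and none lower, and 0.12 on the E11.5 plate, with 1 of 12 higher, near the background of 7.1%. Without pairing the median was -0.22 on the E12.5 and -0.072 on the E11.5 plate. The kinase Pdk1, which keeps pyruvate out of mitochondria, passed the fold on both plates, with 114 CPM in positive and 41.9 CPM in negative E12.5 wells (2.71-fold, 1.56 to 4.94) and 174 CPM in positive and 112 CPM in negative E11.5 wells (1.56-fold, 1.15 to 2.11), and without pairing its E12.5 log2 ratio was -0.23. Aldoa, an enzyme of its middle steps, had 1295 CPM in positive and 722 CPM in negative E12.5 wells, and 1320.5 CPM in positive and 1224 CPM in negative E11.5 wells. Ldha, which makes lactate, had 1991 CPM in positive and 1336 CPM in negative E12.5 wells, and 2145 CPM in positive and 1836 CPM in negative E11.5 wells, just under 1.5-fold on the E12.5 plate. The 16 nuclear genes of the respiratory chain did not follow: their median log2 ratio was -0.03 on each plate, and none of the 15 measured was 1.5-fold apart.

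**Figure D3:**
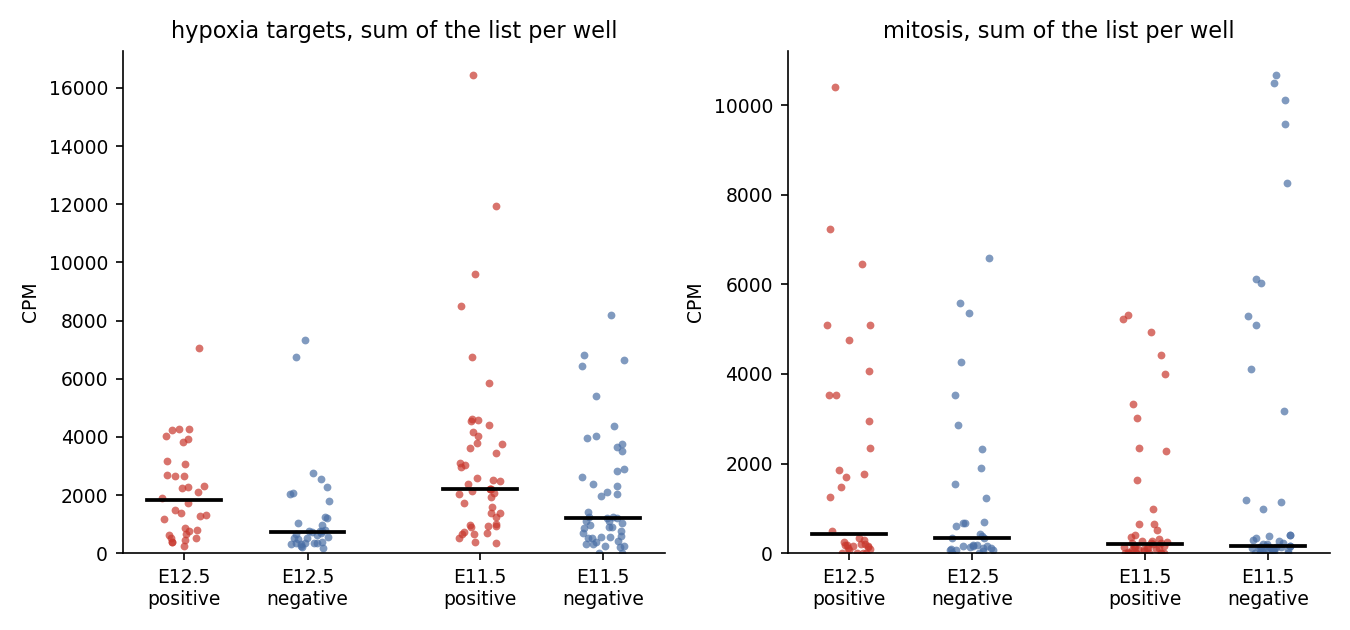
Summed CPM of the hypoxia targets (left) and of the mitosis genes (right) in each paired well, positive wells in red and negative wells in blue, for the E12.5 plate (34 and 34 wells) and the E11.5 plate (47 and 47 wells); black bars are medians. Hypoxia medians are 1820 CPM in positive and 725 CPM in negative E12.5 wells and 2216 CPM in positive and 1204 CPM in negative E11.5 wells, while mitosis sums lie near 0 in most wells and are carried by a minority.

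Genes outside that list that were higher on both plates are described one by one. Tgm2, a transglutaminase that cross-links proteins, had 282 CPM in positive and 133 CPM in negative E12.5 wells (2.13-fold, 1.54 to 2.96), and 170 CPM in positive and 73.3 CPM in negative E11.5 wells (2.32-fold, 1.65 to 3.31). It was higher in the positive well of 20 of 34 and 24 of 47 pairs and lower in 8 and 12. Tbx18, a T-box factor of the mesenchyme around the ureter, had 150 CPM in positive and 69.8 CPM in negative E12.5 wells (2.15-fold, 1.38 to 3.43), and 107 CPM in positive and 62.8 CPM in negative E11.5 wells (1.71-fold, 1.15 to 2.56). It was found in 15 positive and 14 negative E12.5 wells, so about as many wells held it in either group, and the highest level was 2153 CPM in a positive and 497 CPM in a negative well. Without wells that held 3 or more markers of another cell type, its E11.5 log2 ratio was -0.070.

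Mgp, matrix Gla protein, an inhibitor of calcification, had 1790.3 CPM in positive and 797 CPM in negative E12.5 wells (2.25-fold, 1.97 to 2.56), and 766 CPM in positive and 433 CPM in negative E11.5 wells (1.77-fold, 1.53 to 2.05). Its pairs were almost evenly split, with 16 higher and 15 lower on the E12.5 plate and 21 and 20 on the E11.5 plate. A single well held 23.4% of its E12.5 counts, and without that well and its partner the log2 ratio was 0.58. Pappa, a protease that frees insulin-like growth factors from their binding proteins, had 79.5 CPM in positive and 37.2 CPM in negative E12.5 wells, and 65.6 CPM in positive and 31.4 CPM in negative E11.5 wells, about 2-fold on each plate (2.14 and 2.09). Igfbp2, one of those binding proteins, had 393 CPM in positive and 226 CPM in negative E12.5 wells, and 342 CPM in positive and 218 CPM in negative E11.5 wells (1.74-fold and 1.57-fold). Without pairing its E12.5 log2 ratio was -0.037.

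Pdlim3 and Ppp1r14a act on the contractile apparatus, the first as an actin-linked PDZ-LIM protein and the second as an inhibitor of myosin phosphatase. Pdlim3 had 81.8 CPM in positive and 39.5 CPM in negative E12.5 wells (2.07-fold, 1.13 to 3.93), and 68.6 CPM in positive and 25.4 CPM in negative E11.5 wells (2.70-fold, 1.52 to 5.02). Ppp1r14a had 86.3 CPM in positive and 41.9 CPM in negative E12.5 wells (2.06-fold, 1.15 to 3.84), and 64.1 CPM in positive and 37.4 CPM in negative E11.5 wells (1.71-fold, 1.02 to 2.93). Myh11, the myosin heavy chain of smooth muscle, also passed the fold on both plates, but 33.0% and 38.8% of its counts lay in 1 well, and without that well and its partner the log2 ratios were -0.37 and -0.17. Acta2, smooth muscle actin, had 1112 CPM in positive and 1125 CPM in negative E12.5 wells, and 754 CPM in positive and 974 CPM in negative E11.5 wells. The 12 smooth muscle and pericyte markers had median log2 ratios of 0.26 and 0.09, with 4 of 10 members higher (background 9.27%) and 1 lower (7.83%) on the E12.5 plate, and 1 of 11 higher (7.1%) and 2 lower (6.99%) on the E11.5 plate, counts of 1 or 2 being near the background. The 4 were Myh11 and the pericyte genes Rgs5, Cspg4 and Notch3, named after their values were seen, whose log2 ratios were 1.06, 0.93 and 0.88 on the E12.5 plate and -0.51, -0.78 and 0.34 on the E11.5 plate.

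Cebpd, a bZIP transcription factor, had 114 CPM in positive and 51.2 CPM in negative E12.5 wells (2.22-fold, 1.32 to 3.85), and 169 CPM in positive and 86.8 CPM in negative E11.5 wells (1.94-fold, 1.40 to 2.71). Tob2, of a family of proliferation inhibitors, had 86.3 CPM in positive and 46.5 CPM in negative E12.5 wells (1.86-fold, 1.053 to 3.37), and 103 CPM in positive and 55.3 CPM in negative E11.5 wells (1.86-fold, 1.23 to 2.85). Ube2g1, a ubiquitin-conjugating enzyme, had a difference spread over many wells on the E11.5 plate: its level there was 139 CPM in positive and 68.8 CPM in negative wells (2.02-fold, 1.40 to 2.94), it was found in 42 and 24 of 47 wells, and the positive well was higher in 33 pairs and lower in 10. Its E12.5 level was 114 CPM in positive and 65.1 CPM in negative wells (1.74-fold, 1.08 to 2.88). Ifitm1, an interferon-induced membrane protein, had 170 CPM in positive and 81.4 CPM in negative E12.5 wells (2.09-fold, 1.38 to 3.22), and 148 CPM in positive and 83.8 CPM in negative E11.5 wells (1.76-fold, 1.26 to 2.49), and without pairing its E12.5 log2 ratio was -0.078. Dusp1, a phosphatase of MAP kinases, had 95.4 CPM in positive and 58.1 CPM in negative E12.5 wells, and 148 CPM in positive and 94.2 CPM in negative E11.5 wells, with the E11.5 log2 ratio at -0.019 without pairing.

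Genes lower in positive wells on both plates were fewer in paired wells, and few of them stayed past the fold without pairing or at another threshold. Of the 10, 1 was still 1.5-fold lower on both plates without pairing, 0 with the threshold at 3 counts and 0 at 1 count, while 7, 8 and 9 kept their direction. Without pairing or the deepest wells more genes were lower than higher on both plates (58 against 31), and 3 of the 10 were among them. Hbs1l, a GTPase that rescues stalled ribosomes, had 45.4 CPM in positive and 105 CPM in negative E12.5 wells, 2.30-fold lower (1.33 to 4.12), and 46.2 CPM in positive and 97.2 CPM in negative E11.5 wells, 2.10-fold lower (1.35 to 3.34). The positive well was lower in 19 of 34 and 29 of 47 pairs and higher in 5 and 9, so this difference was spread over many wells. Capn6, a calpain without protease activity that stabilises microtubules, had 123 CPM in positive and 226 CPM in negative E12.5 wells (1.84-fold lower, 1.30 to 2.61), and 128 CPM in positive and 276 CPM in negative E11.5 wells (2.15-fold lower, 1.65 to 2.81). Npm3, a nucleolar histone chaperone, had 47.7 CPM in positive and 81.4 CPM in negative E12.5 wells (1.71-fold lower, 0.97 to 3.08), and 43.2 CPM in positive and 82.3 CPM in negative E11.5 wells (1.90-fold lower, 1.19 to 3.09). Zfp91, Rhoj, Fam98a and Htatsf1 were also past the fold on both plates, at 1.505-fold to 1.73-fold lower, and the interval of the ratio included 1 on at least 1 plate for each. Plp2, Slc25a12, Zfp354c, Farsb and Mrpl57 had ratios below 1 on both plates but missed 1.5-fold on at least 1 of them. Actg2 passed the fold on both plates only through single wells, which held 50.9% and 80.5% of its counts.

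Mitosis genes went opposite ways on the 2 plates. The 15 genes of the list, which drive chromosome condensation, the spindle and cell division, summed to 2244 CPM in positive and 1258 CPM in negative E12.5 wells, a ratio of 1.78 (1.61 to 1.99). E11.5 wells had 1022 CPM in positive and 2325 CPM in negative wells, a ratio of 0.44 (0.40 to 0.48). Of the members measured, 8 of 12 were at least 1.5-fold higher (background 9.27%) and none lower on the E12.5 plate, and all 13 were lower on the E11.5 plate (background 6.99%), with median log2 ratios of 0.87 and -1.30. Top2a, the topoisomerase that untangles chromosomes, had 483 CPM in positive and 226 CPM in negative E12.5 wells, and 240 CPM in positive and 429 CPM in negative E11.5 wells. Mki67, a protein of dividing cells, had 348 CPM in positive and 170 CPM in negative E12.5 wells, and 167 CPM in positive and 313 CPM in negative E11.5 wells. Aurka, a spindle kinase, was 5.02-fold lower in positive E11.5 wells (2.51 to 11.1), with 14.9 CPM, against 74.8 CPM in negative wells.

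This difference lay in a minority of wells. The median well had 422 CPM of the mitosis genes in the positive and 334 CPM in the negative E12.5 group, and 207 CPM in the positive and 169 CPM in the negative E11.5 group, so the E11.5 medians did not follow the sums. Wells over 2000 CPM numbered 11 positive and 7 negative on the E12.5 plate, and 9 positive and 11 negative on the E11.5 plate. The highest well had 10400 CPM in the positive and 6581 CPM in the negative E12.5 group, and 5325 CPM in the positive and 10681 CPM in the negative E11.5 group. Without pairing the list's median log2 ratio was 0.44 on the E12.5 plate and -0.54 on the E11.5 plate. Wells with granulocyte transcripts, described further on, were also more frequent among negative E11.5 wells, and without wells holding 3 or more markers of blood, vessel or neural cells the medians were 0.88 and -0.58, the same directions at a smaller E11.5 size. Genes of DNA replication, such as the Mcm helicase and Rrm2, had median log2 ratios of 0.47 and 0.01, with 3 of 11 and 0 of 12 members higher (background 9.27% and 7.1%). Mcm5 was the largest of these, with 225 CPM in positive and 97.7 CPM in negative E12.5 wells.

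Cdkn1c, the imprinted inhibitor of cyclin-dependent kinases, pointed the other way from the mitosis genes on the E12.5 plate, at 1294 CPM in positive and 3927 CPM in negative wells. Its E11.5 level was 2026 CPM in positive and 1669.7 CPM in negative wells. Ccnd2, a D cyclin, had 1107 CPM in positive and 1816 CPM in negative E12.5 wells, and 1634 CPM in positive and 1387 CPM in negative E11.5 wells. Over the 12 D cyclins and inhibitors the median log2 ratio was -0.47 on the E12.5 plate, with 3 of 6 measured members lower (background 7.83%), and 0.17 on the E11.5 plate, with 0 of 8 apart (background 14.1%). The list, which includes Cdkn1c, summed to 3499 CPM in positive and 6984 CPM in negative E12.5 wells. The median E12.5 well was close to even, with 2863 CPM in the positive and 2870 CPM in the negative group. The highest E12.5 wells had 10534 and 27139 CPM, and the positive well was higher in 12 of 34 pairs.

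Stroma markers were held by nearly all wells of both groups. At least 3 of the 12 medullary and ureteric stroma markers were found in 33 of 34 positive and 33 of 34 negative E12.5 wells, and in 47 of 47 and 46 of 47 E11.5 wells. At least 3 of the 11 cortical stroma markers were found in 31 and 30 wells, and in 42 and 41 wells. For the medullary list the summed level was 5004 CPM in positive and 8205 CPM in negative E12.5 wells. E11.5 wells had 6651 CPM in positive and 5533 CPM in negative wells. Its median log2 ratios were -0.39 and 0.23. The median E12.5 well was closer to even, with 5070 CPM in the positive and 5546 CPM in the negative group. E11.5 median wells had 6458 and 5023 CPM of this list, and the positive well was higher in 15 of 34 and 28 of 47 pairs. Cdkn1c, described above and lower in positive E12.5 wells, belongs to this list and to the D cyclins and inhibitors. The cortical list had 1919 CPM in positive and 1402 CPM in negative E12.5 wells. E11.5 wells had 2229 CPM in positive and 1932 CPM in negative wells. The list's median log2 ratios were 0.46 and 0.33, the same direction on both plates. The median E12.5 well did not follow, with 1264 CPM in the positive and 1314 CPM in the negative group. E11.5 median wells had 1778 and 1590 CPM. The positive well was higher in 17 of 34 and 24 of 47 pairs. In thinned wells at least 3 cortical markers were found in 8 positive and 10 negative E12.5 wells, and in 11 and 21 E11.5 wells. Foxd1, the defining factor of cortical stroma, had 143 CPM in positive and 126 CPM in negative E12.5 wells, and 93.9 CPM in positive and 74.8 CPM in negative E11.5 wells, under 1.5-fold on each. Alx1, a homeobox gene of the medullary list, had 45.4 CPM in positive and 72.1 CPM in negative E12.5 wells but 80.5 CPM in positive and 23.9 CPM in negative E11.5 wells (3.36-fold, 1.90 to 6.30).

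Nephron progenitor markers were present in both groups at low levels and were lower in positive wells on 1 plate. The 15 markers summed to 504 CPM in positive and 970 CPM in negative E12.5 wells, a ratio of 0.52 (0.44 to 0.61), and to 532 CPM in positive and 480 CPM in negative E11.5 wells, a ratio of 1.11 (0.95 to 1.29). At least 3 of them were found in 15 of 34 positive and 22 of 34 negative E12.5 wells, and in 23 of 47 and 25 of 47 E11.5 wells. Six2, which keeps progenitors self-renewing, had 61.3 CPM in positive and 114 CPM in negative E12.5 wells, and 47.7 CPM in positive and 44.9 CPM in negative E11.5 wells. Cited1, of the least differentiated progenitors, had 13.6 CPM in positive and 60.5 CPM in negative E12.5 wells, and 1 and 14 counts in E11.5 wells, 80.0% of them in 1 well. The homeobox gene Uncx had 11.4 CPM in positive and 158 CPM in negative E12.5 wells, and 32.8 CPM in positive and 18.0 CPM in negative E11.5 wells, where 1 well held 47.1% of its counts. The median log2 ratio of measured members was -0.14 and 0.09, each over 5 genes, and 2 of the 5 were 1.5-fold lower on the E12.5 plate (background 7.83%).

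Early nephron markers followed the same pattern in their sums. They summed to 635 CPM in positive and 1037 CPM in negative E12.5 wells, and to 549 CPM in positive and 482 CPM in negative E11.5 wells, with median log2 ratios of -0.62 over 3 genes and 0.41 over 2. The median E12.5 well had 343 CPM of them in either group, and E11.5 median wells had 325 CPM in positive and 260 CPM in negative wells. The positive well was higher in 15 of 34 and 24 of 47 pairs. Wnt4, the signal that turns progenitors into epithelium and is also made by medullary stroma, had 134 CPM in positive and 331 CPM in negative E12.5 wells, and 188 CPM in positive and 100 CPM in negative E11.5 wells. Lhx1, of early nephron epithelium, had 2 counts in positive and 23 in negative E12.5 wells, and 88.0% of them lay in 1 well. Pax2, a regulator of nephron and ureteric lineages and outside the lists, had 27.3 CPM in positive and 95.3 CPM in negative E12.5 wells (3.50-fold lower, 1.803 to 7.31), and 29.8 CPM in positive and 25.4 CPM in negative E11.5 wells.

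Podocyte markers, some of which, such as Tcf21, stroma also expresses, went opposite ways as well. Their sum was 557 CPM in positive and 1131 CPM in negative E12.5 wells, and 1198 CPM in positive and 711 CPM in negative E11.5 wells, with median log2 ratios of -0.65 (2 of 3 measured members lower, background 7.83%) and 0.75 (4 of 6 higher, background 7.1%). The median well had 615 CPM in positive and 874 CPM in negative E12.5 wells. E11.5 median wells had 798 and 748 CPM, and the highest 25053 and 2175 CPM. The positive well was higher in 11 of 34 and 32 of 47 pairs. Wt1, a factor of progenitors and podocytes, had 109 CPM in positive and 319 CPM in negative E12.5 wells, and 310 CPM in positive and 259 CPM in negative E11.5 wells. Foxc2, a forkhead factor, had 127 CPM in positive and 199.98 CPM in negative E12.5 wells, and 137 CPM in positive and 85.3 CPM in negative E11.5 wells. Podxl, a sialoprotein of the surface of mature podocytes, lay in few wells. It had 0 counts in positive and 45.2 in negative E12.5 wells, all in 1 well, and 60.2 in positive and 1 in negative E11.5 wells, 73.9% of them in 1 well, so it was measured there only through positive wells. At least 3 podocyte markers were found in 17 of 34 positive and 18 of 34 negative E12.5 wells, and in 36 of 47 and 24 of 47 E11.5 wells.

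Ureteric epithelium was nearly absent from both groups. At least 3 of its 13 markers were found in 1 positive and 0 negative E12.5 wells and in 0 positive and 1 negative E11.5 wells. The sum was 99.97 CPM in positive and 27.9 CPM in negative E12.5 wells, 50% of it in 1 well, and 49.2 CPM in positive and 58.3 CPM in negative E11.5 wells. Wells with 1 tdTom count had more in sum, 223 and 370 CPM, but their median well had 0 CPM on each plate. Coelomic epithelium and gonad markers had 116 CPM in positive and 326 CPM in negative E12.5 wells, and 395 CPM in positive and 274 CPM in negative E11.5 wells, and only Wt1, shared with the podocyte list, was measured among them. The coelomic epithelium covers the organs of the body cavity and lies next to the early kidney. Skeletal muscle and cartilage markers had 175 CPM in positive and 205 CPM in negative E12.5 wells, and 164 CPM in positive and 123 CPM in negative E11.5 wells.

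Cells of blood and vessels were rare and uneven. Granulocyte genes such as S100a8, Elane and Mpo summed to 103 CPM in positive and 5779 CPM in negative E11.5 wells, where 1 negative well held 51.6% of the counts. The counts of the E12.5 plate list only 1 of the 10 granulocyte genes. It had 4.54 CPM in positive and 4.65 CPM in negative E12.5 wells, from 2 counts in each group. At least 3 granulocyte markers were found in 5 of 47 positive and 12 of 47 negative E11.5 wells, and the median well had 108.5 CPM of them in the positive and 82.3 CPM in the negative group. Granulocytes are white blood cells with toxic granules, and macrophages engulf dead cells and debris. Macrophage markers had 54.5 CPM in positive and 39.5 CPM in negative E12.5 wells, and 82.0 CPM in positive and 480 CPM in negative E11.5 wells, 52.4% of it in 1 well. E11.5 wells with 1 tdTom count had 1408 CPM in sum, but their median well had 64.1 CPM. Endothelial cells line vessels, and their markers had 116 CPM in positive and 114 CPM in negative E12.5 wells, and 583 CPM in positive and 150 CPM in negative E11.5 wells, where 1 positive well held 56.6% of the counts. Neural and neural crest markers had 702 CPM in positive and 25.6 CPM in negative E12.5 wells, 90.6% of it in 1 positive well, and 104 CPM in positive and 550 CPM in negative E11.5 wells, 55.9% of it in 1 negative well. Erythroid markers had 225 CPM in positive and 193 CPM in negative E12.5 wells, and 1.49 CPM in positive and 0 CPM in negative E11.5 wells. The counts of the E11.5 plate list only 3 of the 10 erythroid markers. Positive wells therefore included single wells with endothelial, neural and podocyte transcripts, and negative wells single wells with granulocyte, macrophage and neural transcripts. Of the paired wells, 11 positive and 11 negative on the E12.5 plate and 15 and 20 on the E11.5 plate held 3 or more markers of endothelium, macrophages, granulocytes, erythroid or neural cells. Those with 5 or more were 3 positive and 0 negative on the E12.5 plate and 1 and 6 on the E11.5 plate. Without the wells with 3 or more, 5 of the 34 genes were still 1.5-fold higher on both plates and 30 kept their direction. The median log2 ratio of the hypoxia targets was then 0.44 on the E12.5 and 0.72 on the E11.5 plate. Leaving out only those with 5 or more, an alternative added after the data were seen, 20 were still apart, 33 kept their direction, and the median log2 ratio of the hypoxia targets was 0.94 and 0.45.

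Matrix and growth factor genes differed less than 1.5-fold for most members. The 15 collagens summed to 22751 CPM in positive and 23746 CPM in negative E12.5 wells, and to 34726 CPM in positive and 29734 CPM in negative E11.5 wells, with median log2 ratios of 0.20 and 0.32. Proteoglycans and elastic fibre genes had medians of 0.01 and 0.18, basement membrane genes -0.09 and 0.19, and the insulin-like growth factor system -0.08 and 0.25. Collagens form the fibres and sheets that hold the tissue together, and the lists of matrix genes kept within a narrow range around even. Col18a1, a collagen of basement membranes, had the widest split between plates among the 15, at 95.6 CPM in positive and 163 CPM in negative E12.5 wells, and 98.6 CPM in positive and 31.4 CPM in negative E11.5 wells. Genes of YAP and mechanosensing had medians of -0.02 and -0.0029, and imprinted genes 0.25 and 0.28. Among imprinted genes, the maternally expressed RNA Meg3 had 2297 CPM in positive and 1369 CPM in negative E12.5 wells, and 2934 CPM in positive and 2060.2 CPM in negative E11.5 wells.

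The lists of Wnt and of BMP and TGF-beta signalling split by plate in their median log2 ratios, while retinoid genes did not. Wnt targets and antagonists had median log2 ratios of -0.31 and 0.33, with 2 of 6 members lower on the E12.5 plate (background 7.83%) and 3 of 7 higher on the E11.5 plate (background 7.1%). Their median well had 1079 CPM in positive and 1339 CPM in negative E12.5 wells. E11.5 median wells were even, at 1614 and 1602 CPM, with the positive well higher in 24 of 47 pairs. Lef1, a Wnt-responsive factor, had 13.6 CPM in positive and 86.0 CPM in negative E12.5 wells, and 38.8 CPM in positive and 53.9 CPM in negative E11.5 wells, ratios of 0.16 (0.05 to 0.38) from 6 and 37 counts and 0.72 (0.42 to 1.23). Wnt ligands had medians of -0.94 and 0.54, each over 2 genes. Their median well was nevertheless higher in the positive group on both plates. It had 193 CPM in positive and 137 CPM in negative E12.5 wells, and 241 and 177 CPM in E11.5 wells. The positive well was higher in 20 of 34 and 27 of 47 pairs. Wnt, BMP and retinoid signals pattern the nephron and the stroma of the embryonic kidney. BMP and TGF-beta genes had -0.45 and 0.18, Hox genes -0.31 and 0.22, and retinoid genes 0.17 and 0.30. Stra6, a transporter of retinol, was among the genes with the lowest E12.5 ratios, at 24.99 CPM in positive and 107 CPM in negative wells (4.28-fold lower, 2.18 to 9.16), and had 73.1 CPM in positive and 79.3 CPM in negative E11.5 wells. Cholesterol synthesis genes had medians of 0.36 and -0.47, with 4 of 12 members higher on the E12.5 plate (background 9.27%) and 4 of 13 lower on the E11.5 plate (background 6.99%).

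Genes of the immediate early response, which dissociation can induce, were higher in positive wells on the E12.5 plate. Their sum was 9310 CPM in positive and 6404 CPM in negative E12.5 wells, and 10312 CPM in positive and 8969 CPM in negative E11.5 wells, with median log2 ratios of 0.51 (7 of 16 members higher, background 9.27%) and 0.29 (1 of 16 higher, background 7.1%, and 2 lower, background 6.99%). Jun, a subunit of AP-1, had 1285 CPM in positive and 736 CPM in negative E12.5 wells and was higher in 26 of 34 pairs, and had 1155 CPM in positive and 934 CPM in negative E11.5 wells, higher in 33 of 47 pairs. Klf6 went opposite ways, with 273 CPM in positive and 119 CPM in negative E12.5 wells and 260 CPM in positive and 426 CPM in negative E11.5 wells. Since the immediate early and the hypoxia lists moved together with the label on the E12.5 plate, their parts in each other's difference were not tested. Heat shock genes had medians of -0.15 and -0.03, the integrated stress response and serine pathway -0.18 and -0.07, and interferon and MHC class I genes 0.38 and -0.0049. Cytosolic ribosomal protein genes were close to even, at -0.12 and -0.15, with none of 16 past 1.5-fold on either plate.

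**Figure D4:**
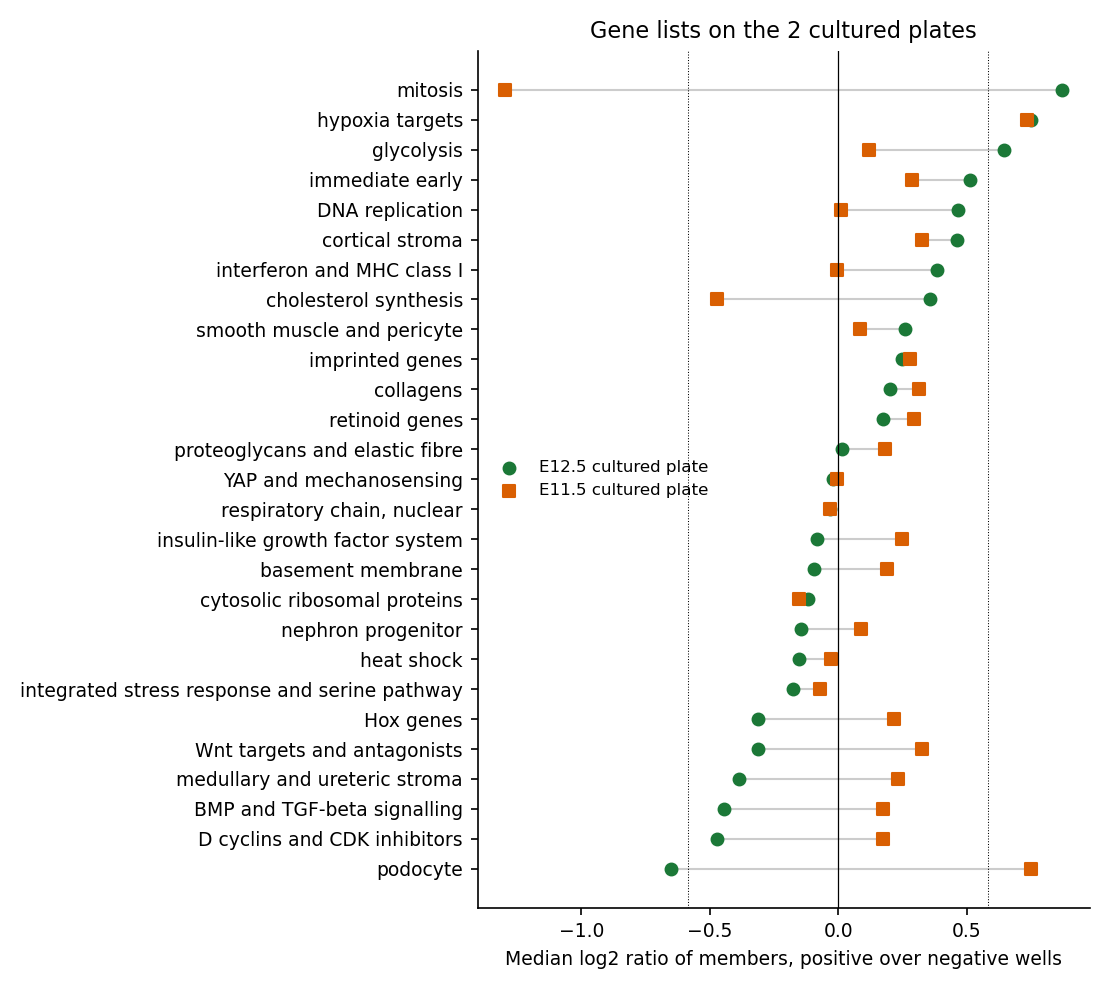
Median log2 ratio of the measured members of each gene list, positive over negative wells, on the E12.5 plate (circles) and the E11.5 plate (squares); lists with 3 or more measured members on both plates are drawn, except neural and neural crest (4.64 and -2.70), and dotted lines mark 1.5-fold. Hypoxia targets lie at 0.75 and 0.73, while mitosis (0.87 and -1.30) and podocyte (-0.65 and 0.75) are split between the plates.

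Genes with the largest ratios on 1 plate mostly differed less on the other. The 10 genes chosen on the E12.5 plate, 5 in each direction, were all within 1.5-fold on the E11.5 plate, and 5 of the 10 chosen on the E11.5 plate were within 1.5-fold on the E12.5 plate. On the E12.5 side Slc38a4, an amino acid transporter, had 105 CPM in positive and 27.9 CPM in negative wells (3.75-fold, 1.95 to 7.77), higher in 21 pairs and lower in 4, but 79.0 CPM in positive and 68.8 CPM in negative E11.5 wells. Kcnj8, a potassium channel of pericytes, had 152 CPM in positive and 48.8 CPM in negative E12.5 wells (3.12-fold, 1.89 to 5.36), and 95.6 CPM in positive and 88.3 CPM in negative E11.5 wells. Pericytes wrap small vessels. Spc25, Tk1 and Fabp5 were the other 3, and Spc25 of the kinetochore and Tk1 of nucleotide supply are genes of dividing cells. Lowest beside Stra6 and Pax2 were Plxdc2, Gm17066 and St3gal1, at 3.15-fold to 3.44-fold lower. Among E11.5 wells Pltp, a lipid transfer protein, had 64.1 CPM in positive and 19.4 CPM in negative wells (3.30-fold, 1.74 to 6.68), and 43.2 CPM in positive and 58.1 CPM in negative E12.5 wells. Pth1r, the receptor of parathyroid hormone, had 77.5 CPM in positive and 28.4 CPM in negative E11.5 wells (2.73-fold, 1.59 to 4.89), and 93.1 CPM in positive and 88.4 CPM in negative E12.5 wells. Casp4, an inflammatory caspase, had 86.5 CPM in positive and 26.9 CPM in negative E11.5 wells (3.21-fold, 1.87 to 5.79). Knstrn, Aurka and Knl1, genes of the spindle and kinetochore, and Ndc1 and Prkcb had the lowest E11.5 ratios, at 4.71-fold to 5.12-fold lower in positive wells.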

How the data were processed

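RNA of single wells of mouse embryonic kidney was measured by SORT-seq on 3 plates of 384 wells, of which the 2 cultured plates give the results. The authors deposited 1 table per plate of estimated counts of transcripts per gene and well, corrected by molecular identifiers, as the values show: 1.53% (E12.5) and 1.43% (E11.5) of the values above 0 are not whole, the smallest of these 21.1. The submitters' processing notes name STAR 2.6.1a, featureCounts 1.5.2 and the build GRCm38.p5, without settings. A column of counts assigned to no well (4.27% and 4.26% of all counts, and 4.21% on the uncultured plate) was left out. Spike-ins, mitochondrial genes and added sequences were left out of the depth. Wells of different plates share well names, which are plate positions and not shared cells. No doublet caller was run, and wells labelled as holding over 1 cell were left out.

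Positive and negative wells were paired 1 to 1 by depth within a plate, with the smallest total distance and a limit of 0.1 on the log10 scale, and their counts were summed. Ratios are of CPM (scale 1e+06) with exact 95% intervals for Poisson counts. A group at 0 counts was set to a floor of 3 counts for its ratio, and no ratio was made where both groups had 3 or fewer. The 50-count limit of a gene is on the sum of both groups, so a gene of a rare cell type can pass through 1 group. Because estimated counts of 1 plate per stage have no replicate, no count model was fitted. The steps were tested on simulated data. They used Python 3.11.15, numpy 2.4.6, pandas 2.3.3, scipy 1.17.1 and matplotlib 3.10.9.

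Genes were named by rule: up to 12 in each direction by the smaller of their 2 ratios, with the same direction and at least 50 counts on both plates and no well with over 25% of the counts; then the 5 largest ratios in each direction on each plate; list members at least 1.5-fold apart the same way on both plates; the Lgr receptors, R-spondins and added sequences; and up to 4 examples a list. The members, the lists and the tests were chosen with earlier results of these data known. The 14 cell type lists are nephron progenitor, early nephron, podocyte, ureteric epithelium, cortical stroma, medullary and ureteric stroma, smooth muscle and pericyte, endothelium, macrophage, granulocyte, erythroid, neural and neural crest, skeletal muscle and cartilage, and coelomic epithelium and gonad. The 24 programme lists are Lgr receptors with R-spondins and ligases, Wnt targets, Wnt ligands, DNA replication, mitosis, D cyclins and inhibitors, hypoxia, glycolysis, immediate early, heat shock, collagens, proteoglycans, basement membrane, YAP, insulin-like growth factors, imprinted genes, Hox genes, retinoid genes, BMP and TGF-beta, integrated stress response, interferon and MHC class I, cholesterol, respiratory chain and ribosomal proteins. Some genes stand in more than 1 list.

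Of the alternatives, 13 were listed with the design, and 2 (no pairing without deep wells, and a limit of 5 markers of other cell types) were added after the data were seen. Wells of over 3 times the plate's median count were left out as one of them.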

Additional observations from a re-analysis of the deposited data

Results flagged for a closer look

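Mitosis genes moved in opposite directions with the label on the 2 plates, with a median log2 ratio of positive over negative wells of 0.87 on the E12.5 plate and -1.30 on the E11.5 plate. The podocyte list did so as well, at -0.65 on the E12.5 plate and 0.75 on the E11.5 plate. These podocyte medians are over 3 and 6 measured members, and Podxl was measured on the E11.5 plate only through positive wells. The median E11.5 well was closer to even, with 798 CPM of the list in the positive and 748 CPM in the negative group. Neural and neural crest genes had 4.64 on the E12.5 plate, where 1 positive well held 90.6% of their counts, and -2.70 on the E11.5 plate, where 1 negative well held 55.9%. None of these differences between plates was tested, since there is 1 plate per stage.

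Wells labelled as holding over 1 cell, which enter no comparison above, carried more label than kept wells. On the E12.5 plate 33 of 42 such wells held tdTom, at 462 CPM (411 to 518), against 75.3 CPM in kept wells, 6.14-fold higher (5.07 to 7.43). The E11.5 plate had 27 of 42 such wells, at 524 CPM (470 to 584), against 63.8 CPM, 8.21-fold higher (6.88 to 9.83). The highest held 24.1 and 55.4 tdTom counts. Their median depth was 10478 and 7535 counts, near that of kept wells (9212 and 8992.5).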

How the results depend on the processing

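The number of genes at least 1.5-fold apart was 688 of 4025 measured on the E12.5 plate, 816 of 5791 on the E11.5 plate and 44 of 3961 in the same direction on both. The number measured changed with the setting as well. Without pairing 1038 of 6705 were apart on the E12.5 plate and 108 of 6566 on both. With positive wells at 3 or more counts it was 433 of 2102 on the E12.5 plate. Wells thinned to 2000 counts gave 43 of 370, 73 of 567 and 4 of 355. Without wells holding 3 or more markers of other cell types it was 397 of 2312 and 508 of 3389. A limit of 20 counts per gene gave 2118 of 7753, 2231 of 9399 and 230 of 7626. With a limit of 100 it was 200 of 1780, 241 of 2970 and 14 of 1766, and a call at 2-fold gave 152, 189 and 6. Without deep wells 68 of 3885 genes were apart on both plates, and 89 of 5967 without deep wells or pairing. Log2 ratios of at least 1.5-fold turned round in 39 values. Without pairing Ifitm1 (-0.078), Pdk1 (-0.23), Igfbp2 (-0.037), Rhoj (0.046), Plp2 (0.12), Actg2 (2.003), the hypoxia (-0.023) and glycolysis (-0.22) medians did so on the E12.5 plate, and Dusp1 (-0.019) on the E11.5 plate. Thinning turned Pdlim3 (-0.32), Kcnj8 (-0.41), Pax2 (1.00), Alx1 (0.32), Plp2 (1.42), Rhoj (0.0005) and Actg2 (0.26) on the E12.5 plate, and Pdlim3 (-0.74), Ppp1r14a (-0.26), Npm3 (0.74), Rhoj (0.0004) and NeoR (0.42) on the E11.5 plate. A threshold of 3 counts turned Tob2 (-0.15) and Actg2 (4.21) on the E11.5 plate and Myh11 (-0.25) on the E12.5 plate, and a threshold of 1 count Alx1 (0.37) and Actg2 (0.37) on the E12.5 plate. Leaving out wells with other markers turned Tbx18 (-0.070), Rhoj (0.16), Actg2 (4.21), Dusp1 (-0.039) and NeoR (0.035) on the E11.5 plate. Myh11 (-0.37 and -0.17) and Actg2 (1.91 and 4.28) turned on both plates without their top well, and Actg2 (4.26) on the E11.5 plate without deep wells. Without deep wells or pairing Actg2 (0.36 and 2.71) turned on both plates and Dusp1 (-0.13) on the E11.5 plate. The causes were not tested, but fewer counts enter by construction when wells are thinned. Of the other ratios of named genes and lists, 1692 values moved by less than their spread, 90 of them across 0, and 185 by more, 22 of them across 0. With 8 values of EGFP_IRES_Cre, these 120 changes of sign were of ratios below 1.5-fold, at most 0.57 on the log2 scale in paired wells. The main limits are a label of 1 to a few counts per well, depth that differs between the groups before pairing, and 1 plate per stage. No paired analysis was possible because the labels give no replicate numbers and each stage has 1 plate, and the pairs of wells above are matched on depth and mark no shared replicate.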

Other observations

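Wells with exactly 1 tdTom count, in neither group above, were not paired by depth. Their median depths were 9938 and 9058 counts, below those of the paired wells they are set against here. Their sums lay between positive and negative wells for the hypoxia targets on both plates (1719 and 2207 CPM), and for mitosis genes on the E12.5 plate (1706 CPM, against 2244 CPM in positive and 1258 CPM in negative wells). The median E12.5 well with 1 count had 237 CPM of the mitosis genes, below the median wells of both groups (422 and 334 CPM). On the E11.5 plate the sum of their mitosis genes was near the positive wells, at 1052 CPM, against 1022 CPM in positive and 2325 CPM in negative wells. Their median E11.5 well had 178 CPM, against 207 CPM in the positive and 169 CPM in the negative group. They held macrophage transcripts at 492 CPM in sum on the E12.5 plate, against 54.5 CPM in positive and 39.5 CPM in negative wells. Their median well there had 11.55 CPM, against 56.8 CPM in the positive and 0 CPM in the negative group. In sum their ureteric epithelium markers were at 223 and 370 CPM, above the sums of both groups on each plate. Neural and neural crest transcripts in them summed to 67.9 and 937 CPM. For the ureteric and the neural markers alike, the median well with 1 count had 0 CPM on each plate.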
